A study of Mus musculus with 6 samples.

Results

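Acyl-CoA synthetases of the long-chain (ACSL) family and 4 genes of ferroptosis defence and membrane lipid remodelling were followed in vascular endothelial cells (VECs) sorted from retinas of control and Bmal1;CKO mice. The 9 genes, out of 55487 in the deposited table, were taken by symbol: Acsl1, Acsl3, Acsl4, Acsl5, Acsl6, Lpcat3, Gpx4, Slc7a11 and Aifm2. Each symbol matched 1 identifier. Acsl4 had been picked out in the study by its difference between these same libraries, and the list around it was drawn up with results of this contrast known. The differences between the groups are therefore given for the 9 genes as a description, with their spread and without a test. Apart from these libraries, the authors report lower ACSL4 in Bmal1;CKO by qPCR on endothelial cells enriched with CD31 beads.

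ACSL enzymes join long-chain fatty acids to coenzyme A, which commits the fatty acid to membrane lipids, storage or oxidation. ACSL4 prefers polyunsaturated fatty acids such as arachidonic acid, and LPCAT3 places these acyl chains into phospholipids. Such phospholipids are the substrate of ferroptosis, a form of cell death driven by iron-dependent lipid peroxidation. GPX4, a selenoenzyme, reduces lipid hydroperoxides with glutathione, SLC7A11 imports the cystine from which glutathione is made, and AIFM2 (also FSP1) regenerates reduced coenzyme Q as a separate line of defence.

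Control pups, the source of 3 libraries, were tdTomatoFL/+;Pdgf-icreER. Bmal1;CKO pups, the source of the other 3, also carried 2 floxed alleles and were Bmal1FL/FL;tdTomatoFL/+;Pdgf-icreER. All pups carried the tamoxifen-inducible Pdgf-icreER transgene with its GFP, which labels endothelial cells, and the Cre reporter tdTomato. Tamoxifen was given to all of them between P0.5 and P2.5. They were on a C57BL/6 J background and were collected at P7.5 at ZT6, and cells positive for both GFP and tdTomato were sorted. Libraries are numbered by their column in the table, with control as 1, 2 and 3 and Bmal1;CKO as 4, 5 and 6. By the methods the RNA came from 3 animals of each genotype, and the libraries are taken here as biological replicates. Litters, sex and any pooling of pups are not given. Values are normalized counts, that is, reads on a gene scaled by a size factor of each library from DESeq2.

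Reads on genes numbered 71145068 to 104017800 per library, and size factors lay between 0.711 and 1.40. Bmal1, listed as Arntl, had 2706 ± 915 normalized counts in control and 2314 ± 492 in Bmal1;CKO (SD, n = 3 each), with groups that overlapped, and the table does not resolve the floxed exon. By droplet digital PCR on sorted endothelial cells of the same genotypes, the authors report significantly less Bmal1 transcript in Bmal1;CKO. In each library the median of 9 microglia and macrophage markers lay between 55378 and 118104 normalized counts, and that of 14 endothelial markers between 2251 and 7534, so the sorted cells carried abundant RNA of other cell types. Medians for rods ran from 16783 to 74442 and for Müller glia from 8289 to 11515. Those of astrocytes, pericytes and erythroid cells ran from 246 to 720.1, from 6.77 to 3107 and from 37.1 to 652, and Slco1a4 of the endothelial list was at or under 3 reads in a library. In bulk RNA, fewer cells of a type and less RNA per cell cannot be told apart.

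The 2 groups also differed in sex-linked transcripts. Xist, the RNA that coats the inactive X chromosome in females, had 5, 3 and 6 reads in control libraries 1 to 3 and 312, 2885 and 938 in Bmal1;CKO libraries 4 to 6. The Y-linked Ddx3y had 1004, 1504 and 1484 reads in control and 77, 0 and 463 in Bmal1;CKO. Control libraries thus held Y-linked RNA with Xist near 0, library 5 held Xist without Ddx3y, and libraries 4 and 6 held both. A single pup would not be expected to give both, so whether libraries 4 and 6 each came from a single pup is uncertain and was not tested. Each SD given here is a spread between libraries. Genotype and sex-linked RNA cannot be told apart in these libraries, which bears on Acsl4 as an X-linked gene.

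Acsl4 (ENSMUSG00000031278, reverse strand of chromosome X, GRCm38, 142317993 to 142390535) was lower in every Bmal1;CKO library than in any control library. It had 906, 716 and 584 normalized counts in control libraries 1 to 3 and 180.0, 231 and 282 in Bmal1;CKO libraries 4 to 6. The group means were 735 ± 161 and 231 ± 50.9 (SD, n = 3 each), and the log2 fold change was -1.67 (standard error 0.48). The fold change was 3.48 times its standard error, the largest such ratio among the 9 genes. Leaving out 1 library at a time moved it between -1.82 and -1.50, and edgeR with TMM scaling put it at -1.66. These values rest on 736, 772 and 818 reads in control and 128, 268 and 342 in Bmal1;CKO.

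Marker readings of the same libraries are set beside Acsl4. The endothelial marker median was 7534, 4983 and 6409 in control and 4232, 2251 and 7210.2 in Bmal1;CKO, with library 6 inside the control range. As a percent of that median, Acsl4 was 12, 14.4 and 9.12 in control and 4.25, 10.3 and 3.91 in Bmal1;CKO, so the groups overlapped through library 5, where endothelial markers were lowest. Microglial markers exceeded endothelial ones, median over median, by a factor of 13.3, 11.1 and 16.1 in control and 24.4, 42.9 and 16.4 in Bmal1;CKO. The rod marker median was 74442, 56872 and 29231 in control and 16783, 32579 and 24473 in Bmal1;CKO, with groups that overlapped. Means were lower in Bmal1;CKO for 11 of 12 rod markers. Mean levels were also lower for 13 of 14 endothelial, 7 of 8 pericyte and 7 of 7 erythroid markers. They were lower for 3 of 5 astrocyte, 1 of 8 Müller glia and 1 of 9 microglial markers. The pericyte marker median was 6.77, 318 and 3107 in control and 700.4, 285 and 640.1 in Bmal1;CKO. The erythroid marker median was 44.3, 138 and 652 in control and 122, 45.8 and 37.1 in Bmal1;CKO. Both medians were highest in control library 3, and their groups overlapped. The part of cell composition in the Acsl4 difference was not tested. Among the 773 X-linked genes tested, the median log2 fold change was -0.013 (edgeR -0.14), against 0.11 (edgeR -0.031) over all genes tested, and the groups did not overlap for 45 lower (5.82%) and 33 higher (4.27%) of them, against 4.54% and 6.62% of all genes tested. The part of sex in the Acsl4 difference was not tested.

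**Figure D1:**
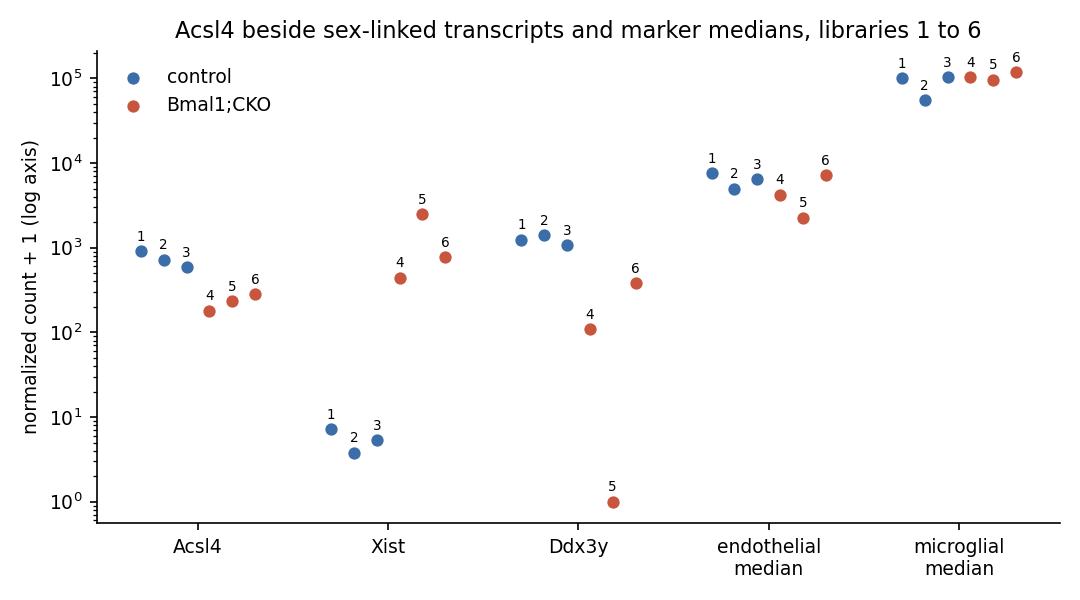
Normalized count + 1 (log axis) of Acsl4, Xist and Ddx3y and of the median endothelial and microglial marker in each of the 6 libraries, numbered 1 to 6. Acsl4 lies between 584 and 906 in control and between 180.0 and 282 in Bmal1;CKO, while Xist is near 0 in control and Ddx3y is highest there.

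The 250 bases before the start of Acsl4 are shown because the BMAL1-CLOCK dimer binds the E-box hexamer CACGTG. The sequence is from RefSeq (GRCm38.p6), chrX:142390536-142390785 on the reverse strand, 5′ to 3′, with capitals reserved for motif matches, of which it has 0.

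Acsl4: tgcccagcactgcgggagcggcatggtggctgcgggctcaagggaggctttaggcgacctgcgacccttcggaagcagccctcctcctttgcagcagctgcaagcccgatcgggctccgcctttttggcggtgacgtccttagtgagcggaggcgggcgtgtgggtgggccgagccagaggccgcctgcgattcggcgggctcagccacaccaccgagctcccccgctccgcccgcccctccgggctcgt

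RefSeq promoter windows were found for all 9 genes, 15 windows of 300 bases in all, from 250 before to 50 after a start, and some windows of a gene overlap. The E-box CACGTG, read on both strands, was in 0 of the 15, against 7.15% of 32817 such windows of all genes. The antioxidant response element TGACNNNGC, bound by NRF2 and read on both strands, was in 1 of the 15, upstream of a start of Acsl6, against 12.4% of all windows. No match says only that these letters are not in the window.

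The 4 other ACSL genes were each lower on average in Bmal1;CKO, by less than their standard error, and their groups overlapped. Acsl3 (ENSMUSG00000032883, chromosome 1, GRCm38, 78657825 to 78707743), found on lipid droplets and endoplasmic reticulum, had 2379.6, 8316 and 4496 normalized counts in control and 2807, 3878 and 3438 in Bmal1;CKO. Its spread lay in control, where library 2 was 3.49 times library 1, and the log2 fold change of -0.42 (standard error 0.45) was 0.032 without control library 2. Utp14b shares an exon with Acsl3 on the same strand, at 116 to 2993 normalized counts, so reads there are uncertain.

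Acsl1 (ENSMUSG00000018796, chromosome 8, GRCm38, 46471037 to 46536051), the main isoform of fat, heart and liver and the usual partner of fatty acid oxidation and storage, had 2512, 2031 and 2435 normalized counts in control and 1304, 2763 and 2527 in Bmal1;CKO. Only library 4 stood apart, and without it the log2 fold change of -0.15 (standard error 0.36) became 0.19. Acsl5 (ENSMUSG00000024981, chromosome 19, GRCm38, 55251938 to 55297720), an isoform of mitochondria and endoplasmic reticulum, had 2473, 1368 and 2795 in control and 1911, 1367 and 1963 in Bmal1;CKO. The difference was -0.29 on the log2 scale with a standard error of 0.36, and it ran from -0.61 to -0.093 when single libraries were left out. Acsl5 overlaps Zdhhc6 on the opposite strand, and the use of strand in the counting is not given in the sources used here.

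Acsl6 (ENSMUSG00000020333, chromosome 11, GRCm38, 54303798 to 54364756), the isoform of brain and retina that favours docosahexaenoic acid, had 1438, 2653 and 2274 normalized counts in control and 1015, 1974 and 2139 in Bmal1;CKO. Libraries 1 and 4 were the lowest of their groups, and the log2 fold change of -0.34 (standard error 0.41) was 0.0003 without library 4. As a share of the summed ACSL level per exon length, Acsl4 made up 10.4%, 4.76% and 4.97% in control and 2.57%, 2.55% and 3.06% in Bmal1;CKO. The share of Acsl3 was 34.0%, 68.6% and 47.4% in control and 49.7%, 53.1% and 46.4% in Bmal1;CKO. The shares of the other isoforms overlapped between groups, and that of Acsl4 did not.

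**Figure D2:**
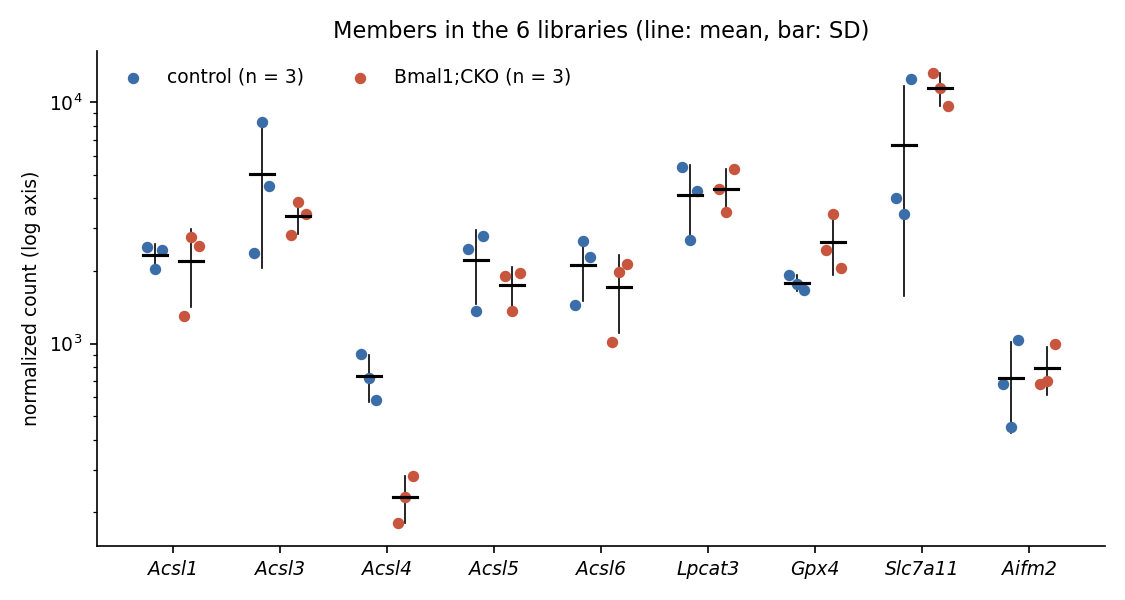
Normalized counts (log axis) of the 9 genes in 3 control and 3 Bmal1;CKO libraries, with points for libraries, lines for means and bars for SD (upper part alone where the lower would pass 0). Acsl4 and Gpx4 are the genes whose groups do not overlap, and Acsl3 and Slc7a11 spread most within control.

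Lpcat3 (ENSMUSG00000004270, chromosome 6, GRCm38, 124663027 to 124704418), the acyltransferase downstream of ACSL4, had 5399, 2695 and 4283 normalized counts in control and 4383, 3499.8 and 5265 in Bmal1;CKO. The ranges were nested, and the log2 fold change of 0.12 (standard error 0.33) turned to -0.15 without control library 2 and -0.02 without library 6. As a percent of the endothelial marker median, Lpcat3 was 54.1 to 71.7 in control and 73.0 to 155 in Bmal1;CKO, groups that did not overlap while that median was itself lower in libraries 4 and 5. Emg1 overlaps Lpcat3 on the opposite strand, at 7450.1 to 14611 normalized counts, so reads there are uncertain.

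Slc7a11 (ENSMUSG00000027737, reverse strand of chromosome 3, GRCm38, 49892526 to 50443614), the cystine carrier, had the second-largest fold change. It had 4001, 3449 and 12508 normalized counts in control and 13183, 11428 and 9619 in Bmal1;CKO. Control library 3 lay inside the Bmal1;CKO range and the other control libraries below it. The means were 6653 ± 5078 and 11410.0 ± 1782 (SD, n = 3 each), and the log2 fold change was 1.02 (standard error 0.48). It was 1.61 without control library 3 and 0.68 without control library 2, and edgeR with TMM scaling gave 0.76. Slc3a2, which encodes the heavy chain that carries SLC7A11 to the membrane, had overlapping groups (adjusted p = 0.960, limma-trend), with 67675, 45919 and 55120.2 in control and 66333, 46843 and 65618 in Bmal1;CKO.

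The 250 bases before the start of Slc7a11 are shown for the amino acid response element, the site through which ATF4 acts on this gene under cystine shortage. The sequence is from RefSeq (GRCm38.p6), chr3:50443614-50443863 on the reverse strand, and capitals mark TGATGCAA on either strand, a motif searched after the sequence was seen.

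Slc7a11: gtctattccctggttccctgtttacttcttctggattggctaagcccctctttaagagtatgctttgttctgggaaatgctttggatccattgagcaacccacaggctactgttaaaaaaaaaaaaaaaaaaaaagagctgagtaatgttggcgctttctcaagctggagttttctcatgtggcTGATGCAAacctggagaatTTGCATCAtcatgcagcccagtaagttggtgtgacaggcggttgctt

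The 2 copies face each other, starting 66 and 47 bases before the start. This octamer was in 1 of the 15 windows of the 9 genes and in 0.896% of all 32817 windows. A match is a description of letters and not of a bound site.

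Gpx4 (ENSMUSG00000075706, forward strand of chromosome 10, GRCm38, 80047166 to 80056439) had 1928, 1764 and 1663 normalized counts in control and 2444, 3445 and 2047 in Bmal1;CKO. The groups did not overlap, and the difference was 0.54 on the log2 scale with a standard error of 0.30, running from 0.33 to 0.70 when single libraries were left out. Gpx4-ps2, a processed pseudogene on chromosome 10 whose transcript matches that of Gpx4 over 512 bases at 99.6% identity with 2 mismatches, had 262203, 174190.2 and 113474 normalized counts in control and 200808, 161899 and 111089 in Bmal1;CKO. Reads listed for Gpx4 were 0.73% to 2.08% of the sum of the pair.

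The sum of Gpx4 and Gpx4-ps2 was 264131, 175954 and 115137 in control and 203253, 165343 and 113136 in Bmal1;CKO. Its means were 185074 ± 74915 and 160577 ± 45247 (SD, n = 3 each), and the groups overlapped. The log2 ratio of the means was -0.20, opposite in sign to the difference of the Gpx4 row, so no direction is given for Gpx4. The authors aligned with Bowtie, and whether reads over splice junctions were placed on the intronless copy was not tested. The 250 bases before the Gpx4 start at 80053565 are shown for comparison with those of Acsl4, from RefSeq (GRCm38.p6), chr10:80053315-80053564, forward strand, with 0 matches to the 3 motifs.

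Gpx4: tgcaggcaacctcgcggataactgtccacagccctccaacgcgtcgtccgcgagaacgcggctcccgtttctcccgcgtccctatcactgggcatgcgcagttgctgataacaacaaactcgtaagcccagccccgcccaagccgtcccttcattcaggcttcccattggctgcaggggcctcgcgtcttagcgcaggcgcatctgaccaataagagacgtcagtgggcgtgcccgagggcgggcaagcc

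Aifm2 (ENSMUSG00000020085, chromosome 10, GRCm38, 61715263 to 61739260), the coenzyme Q oxidoreductase, had 679, 449 and 1038 normalized counts in control and 677, 702 and 998 in Bmal1;CKO. The ranges were nested, and the log2 fold change of 0.19 (standard error 0.45) was -0.11 without control library 2. H2afy2 overlaps an exon of Aifm2 on the opposite strand, so reads there are uncertain. Of the 9 genes, Slc7a11 was the only other one with near-identical pseudogene transcripts. These were 5 copies matching 373 to 375 bases, of which Gm14150 was the highest with a mean of 2387 normalized counts.

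**Figure D3:**
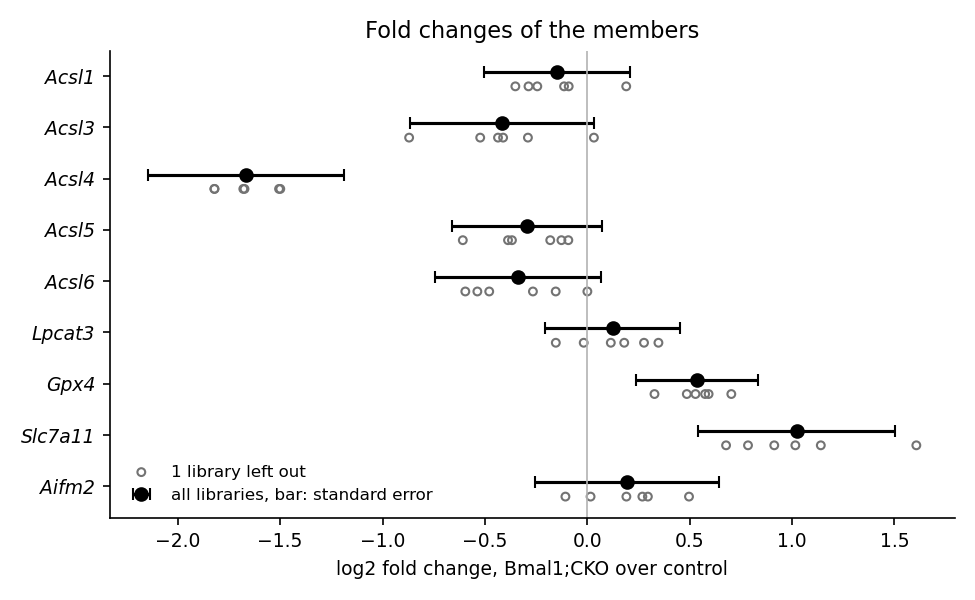
Log2 fold change of Bmal1;CKO over control for the 9 genes, with standard error, from limma-trend on log2(normalized count + 1), and open circles for the fits with 1 library left out. Acsl4 stays between -1.82 and -1.50, whereas circles of Acsl1, Acsl3, Acsl6, Lpcat3 and Aifm2 lie on both sides of 0.

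Compared per length, in RPKM (reads scaled to exon length and to the total on genes) over the 6 libraries, the Lpcat3 row had the highest level at 15.2 ± 3.64 (SD, n = 6) and the Acsl4 row the lowest at 1.05 ± 0.62 (SD, n = 6). Between them came the Gpx4 row at 15.0 ± 4.39, Acsl3 at 11.9 ± 7.39, Slc7a11 at 7.68 ± 3.79, Acsl5 at 4.78 ± 1.61, Acsl1 at 2.57 ± 0.74, Acsl6 at 2.36 ± 1.00 and Aifm2 at 2.19 ± 0.85 (SD, n = 6 each). The Gpx4 row held only 0.73% to 2.08% of the reads on Gpx4 and Gpx4-ps2. The place of Gpx4 in this order is therefore not known, and Lpcat3 is highest only among the rows as listed. Acsl5 and Acsl1 were the only neighbours in this order whose ranges did not overlap, and Acsl5 was above Acsl1 in 6 of 6 libraries. Exon length here is the union of all annotated exons, 4864 bases for Acsl5 and 10483 for Acsl1. In reads, Acsl1 was above Acsl5 in libraries 1, 2, 5 and 6, so their order rests on the lengths used. Lpcat3 was above the Gpx4 row in 3 of 6 libraries and Acsl6 above Aifm2 in 2 of 6, so these neighbours had no fixed order. Acsl4 was at 1.60 ± 0.17 in control and at 0.50 ± 0.17 in Bmal1;CKO (SD, n = 3 each). Aifm2 was at 1.54, 1.46 and 3.39 in control libraries 1 to 3, so it was close to the control mean of Acsl4 in libraries 1 and 2 but not in library 3.

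**Figure D4:**
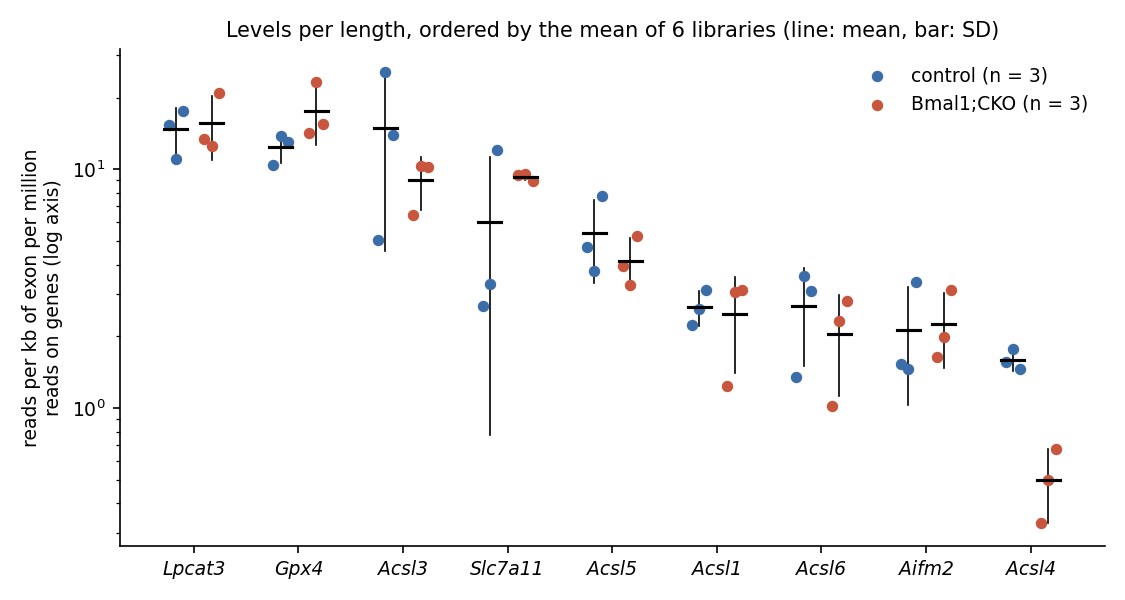
Level per length (RPKM over reads on genes, log axis) of the 9 genes in order of their mean over 6 libraries, with points for libraries, lines for group means and bars for SD. In Bmal1;CKO the points of Acsl4, at 0.333 to 0.677, are the lowest of the plot.

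Across all genes the groups were compared with limma-trend over 20459 genes that reached 10 reads in 3 or more libraries, and all 9 genes of the family and defence group were among them with at least 10 reads in every library. At FDR < 0.05 it called 0 genes (0.0%) and 0 of the 9, with 1007 genes (4.92%) and 1 of the 9, Acsl4, at an unadjusted p under 0.05. Of all genes 3.17% were higher and 1.75% lower at that p. The groups did not overlap in 2283 genes (11.2%) and in 2 of the 9. An absolute log2 fold change over 1 was found for 5167 genes (25.3%) and 2 of the 9. One under -1 was found for 1291 genes (6.31%), Acsl4 among them, and one over 1 for 3876 (18.9%), Slc7a11 among them. edgeR and limma-voom called 0 of the 20459 genes, and their unadjusted p was under 0.05 for 777 and 996. The Wald test of DESeq2 called 67 of the 20459 genes (0.327%) and 0 of the 9. Over the 34419 genes with a read, DESeq2 called 164 (0.476%), or 80 (0.232%) with a normal prior, and Acsl4 was among both. As Acsl4 was chosen from such a call, nothing is read from these counts.

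The genes that act around these 9 were taken as 7 lists of 117 genes, of which 107 passed the filter on reads. By limma-trend, 0 of the 107 passed FDR < 0.05, with 4 lower and 0 higher at an unadjusted p under 0.05. The groups did not overlap for 11 higher and 6 lower genes, 10.3% and 5.61% of the 107, against 6.62% and 4.54% of all genes tested. Of the 107, 60 were higher and 47 lower in Bmal1;CKO, beside 11570 higher and 8889 lower of all 20459 genes tested. The counts of higher and lower genes per list below are to be read beside these. The median log2 fold change was 0.08, or -0.035 with edgeR, beside 0.11 and -0.031 over all genes tested. Named genes below had an adjusted p of 0.883 from limma-trend unless another is given.

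Iron handling held the lowest values. Of 20 tested genes, 8 were higher and 12 lower, with a median of -0.24. Tfrc, the transferrin receptor through which cells take up iron, had 6100.3, 2738 and 1533 normalized counts in control and 596, 577 and 1161 in Bmal1;CKO. The groups did not overlap, and the log2 fold change was -2.00 (standard error 0.55), between -2.47 without control library 3 and -1.47 without control library 1. Slc39a8, a zinc, manganese and iron importer, had 5811, 3807 and 4058 in control and 1401, 947 and 3751 in Bmal1;CKO. Library 6 came close to control, and the log2 difference was -1.39 (standard error 0.51). Red cell precursors also use Tfrc, and the erythroid marker median was 44.3, 138 and 652 in control and 122, 45.8 and 37.1 in Bmal1;CKO. The endothelial marker median was 7534, 4983 and 6409 in control and 4232, 2251 and 7210.2 in Bmal1;CKO. In library 6 that median lay inside the control range, and Slc39a8, at 3751, was just below its lowest control value of 3807. In libraries 4 and 5 Slc39a8 and that median were each below every control library. The part of these markers in the Tfrc and Slc39a8 differences was not tested. In the other direction the groups did not overlap for 2 genes, named here after their values were seen. Trf, which encodes the transferrin that TFRC binds, had 52624, 37111 and 66162 in control and 71241, 74919.8 and 71935 in Bmal1;CKO, a log2 difference of 0.52. Pcbp1, an iron chaperone gene, had a log2 difference of 0.27. The ferritin light chain gene Ftl1 had 10821 ± 5003 and 17846 ± 6292 (SD, n = 3 each) with overlapping groups, and the heavy chain gene Fth1, the highest of the list, had 326293 ± 177845 and 253526 ± 96828 (SD, n = 3 each, adjusted p = 0.911).

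Of the cystine and glutathione genes, 9 of 13 were higher and 4 lower, with a median of 0.22 that was -0.053 without control library 2. Gclm, the modifier subunit of the rate-limiting enzyme of glutathione synthesis, had 6800.4, 3405 and 4068 normalized counts in control and 3240.5, 2307 and 2883 in Bmal1;CKO. Its groups did not overlap, and the log2 fold change was -0.71 (standard error 0.33), opposite in sign to Slc7a11. Cth, which makes cysteine from cystathionine, had 0, 133 and 189 in control and 186, 401 and 238 in Bmal1;CKO. It was lowest in control library 1, and without that library its log2 fold change went from 3.16 to 0.72, while edgeR over all 6 libraries gave 1.35.

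Of the genes for radical defence through coenzyme Q, tetrahydrobiopterin and sterols, 11 of 20 were higher and 9 lower, with a median of 0.034. Coq2, which joins the ring and tail of coenzyme Q, had 4395, 4984 and 4003 normalized counts in control and 3492, 2760.4 and 2459 in Bmal1;CKO. Every Bmal1;CKO library was below control, by -0.63 on the log2 scale (standard error 0.26). Its pseudogene Gm6728 matched it at 96.5% identity with a mean of 3623, so its reads are uncertain. Coq8a, a kinase-like protein of coenzyme Q synthesis, had 326, 1526 and 1934 in control and 2627, 2957 and 2115 in Bmal1;CKO, and Nqo1, a quinone reductase under NRF2, had 0, 92.8 and 46.4 and 136, 122 and 154. The groups of both did not overlap, and control library 1 was lowest for each. Without that library their log2 fold changes were 0.57 and 1.05, against 1.36 and 3.07 with it, and edgeR over all 6 libraries gave 1.01 and 1.56. Coq9, the highest of the list, differed by 0.12 (standard error 0.22, adjusted p = 0.919).

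Of 19 selenoprotein and selenium genes, 8 were higher and 11 lower, with a median of -0.033. Secisbp2, which lets ribosomes read selenocysteine, had 2448, 2441 and 2106 normalized counts in control and 2975, 4077 and 3364 in Bmal1;CKO, without overlap and with a log2 difference of 0.57 (standard error 0.26). The selenocysteine elongation factor gene Eefsec had 5460.3 ± 2299 and 8101 ± 2591, and the thioredoxin reductase gene Txnrd1 6321 ± 3524 and 3350.0 ± 1395 (SD, n = 3 each), both with overlapping groups. Gpx1, the highest of the list, had 208069 ± 95127 and 204001 ± 98011 (SD, n = 3 each, adjusted p = 0.991).

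Of 11 tested lipid peroxidation genes, 7 were higher and 4 lower, with a median of 0.32 that was -0.14 without control library 1. Pebp1, a scaffold that binds 15-lipoxygenase, had 14782, 13353 and 11268 normalized counts in control and 8378, 7434 and 5818 in Bmal1;CKO. The groups did not overlap and differed by -0.87 on the log2 scale (standard error 0.25). Its pseudogenes Gm9824 and Gm10819 matched it at 98.9% and 99.1% identity, with means of 3832 and 1641. Alox5, which encodes the 5-lipoxygenase of myeloid cells, had 3, 101 and 419 reads in control and 252, 449 and 467 in Bmal1;CKO, and Aloxe3, an epidermal lipoxygenase, 0, 87 and 106 and then 90, 144 and 195. Without control library 1 their log2 fold changes went from 2.88 to 1.16 and from 2.90 to 0.79, and edgeR over all 6 libraries gave 1.49 and 1.39. Alox15 had at most 5 reads in a library, and Sat1, the highest of the list, differed by 0.11 (standard error 0.34, adjusted p = 0.951).

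Of 11 tested synthetases outside the ACSL family, 8 were higher and 3 lower, with a median of 0.79 that was 0.027 without control library 1 and 0.35 with edgeR. Slc27a1, a fatty acid transport protein with acyl-CoA synthetase activity, had 4610.3, 7326 and 6929 normalized counts in control and 8242, 9776 and 9965 in Bmal1;CKO. Its groups did not overlap, and the log2 fold change was 0.59 (standard error 0.26). Its relatives Slc27a4 and Slc27a2 had log2 fold changes of 1.24 and 2.39, which were 0.46 and 0.22 without control library 1 and 0.90 and 0.80 with edgeR over all 6. Of 13 acyltransferases related to LPCAT3, 9 were higher and 4 lower, with a median of 0.13. Agpat3 had 17676 ± 2232 and 23979 ± 1255 and Mboat1 702 ± 35.7 and 437 ± 112 (SD, n = 3 each), both without overlap, and Agpat4 had 1809 ± 839 and 2754 ± 827 (SD, n = 3 each).

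**Figure D5:**
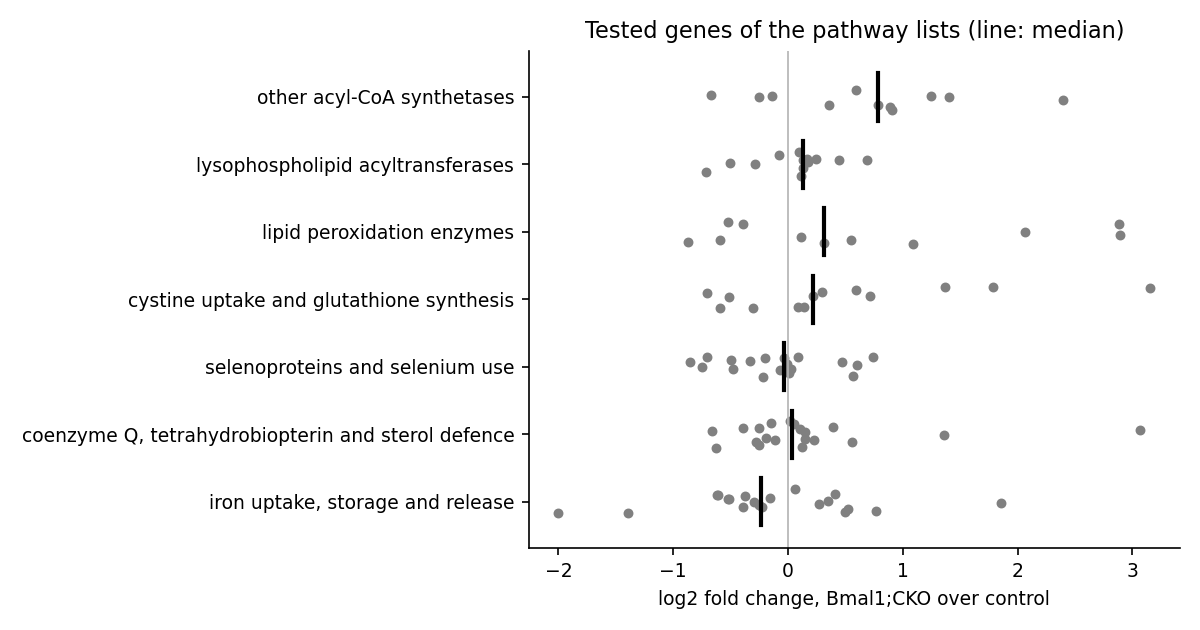
Log2 fold change of Bmal1;CKO over control for each tested gene of the 7 lists (points) and the median of each list (line), from limma-trend. Medians run from -0.24 for iron handling to 0.79 for the other acyl-CoA synthetases, and Tfrc and Slc39a8 are the points furthest to the left.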

How the data were processed

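RNA was measured by RNA-seq in sorted VECs of 3 control and 3 Bmal1;CKO libraries. The authors amplified RNA with the Smart v4 kit, made Nextera XT libraries, used FastQC and Trimmomatic on the reads, placed them on mm10 (Ensembl GRCm38) with Bowtie and ran featureCounts. The versions of these tools and the use of strand are not given in the sources used here. The deposited table holds a signal, namely counts scaled by size factors that the authors took from DESeq2. It also holds the authors' fold changes and p-values, which were not used. Column names give the genotype but no single sample, so each column was a replicate of its genotype.

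Division by each column's smallest step gave whole reads for 100% of values, within 0.01. Each library had at least 71145068 reads on genes. Counting intervals were not used, since amplified reads are not independent molecules, and a count of 0 allows 3 reads. The fit was limma-trend on log2(normalized count + 1) on genotype alone, with Benjamini-Hochberg adjustment (R 4.3.3, limma 3.58.1). Fold changes are differences of group means on that scale, where a single library near 0 weighs more than in edgeR. Alternatives used edgeR 4.0.16 and DESeq2 1.42.0 on recovered reads, other pseudocounts (0.5 and 10), other filters on reads, limma-voom, limma without the trend, and each library left out. The fits were checked on simulated data with 200 changed genes. The planted changes were large, the spread was the same for every gene, and a criterion was set only at the lower spread simulated. The check therefore does not show how the fits perform on changes and spreads such as those here. Exon lengths, each the union of all annotated exons of a gene, and coordinates come from GENCODE M21 (GRCm38). Near-identical copies are pseudogene transcripts matching over at least 200 bases at 95% identity or more by blastn.

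The 9 genes, the 7 lists and the markers were chosen with earlier results of these data known. Named genes are the 9, the targeted gene, and in each list the 3 of smallest unadjusted p and the one of highest mean, of which 1 gene is not reported here. Genes most like Acsl4 are the 5 of highest Pearson coefficient over the 6 libraries. Pseudogenes, overlapping genes, Xist, Ddx3y, Alox15 and the genes beside such pseudogenes were named after their values were seen.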

Additional observations from a re-analysis of the deposited data

How the results depend on the processing

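Acsl4 was lower in Bmal1;CKO under every alternative tried, with a log2 fold change between -1.82 and -1.50 when 1 library was left out. It passed FDR < 0.05 under neither limma, edgeR, limma-voom nor DESeq2 on the filtered genes. It passed with DESeq2 over genes with at least 1 read in total (-1.67, adjusted p = 0.00366) and with a normal prior over the same genes (-1.45, adjusted p = 0.00507), which were added after seeing the data, and the count of the 9 genes called then went from 0 to 1 in each. The count over all genes, 0 by limma-trend, was 67 with DESeq2's Wald test, 61 with limma without the trend, 1 with genes having at least 1 read in total, 1 with genes having at least 10 reads in every library, 164 and 80 with the added DESeq2 fits, and 0 to 6 with 1 library left out, the 6 without control library 1. The cause was not tested. Of the 117 pathway genes 0 were called under any alternative. Log2 fold changes with single libraries left out passed through 0 for Acsl1 (-0.35 to 0.19, the latter without library 4), Acsl3 (-0.87 to 0.032, without control library 2), Acsl6 (-0.60 to 0.0003, without library 4), Lpcat3 (-0.15 without control library 2 and -0.02 without library 6, to 0.35) and Aifm2 (-0.11 without control library 2, to 0.50). Acsl5, Gpx4 and Slc7a11 kept theirs under all alternatives, with the limit that the Gpx4 row holds at most 2.08% of the reads on Gpx4 and its pseudogene.

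No paired analysis was possible because the columns of the table carry no replicate number of the labels.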

Other observations

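The gene most like Acsl4 over the 6 libraries was Ntng1, which encodes the axon guidance protein netrin-G1, with a Pearson coefficient of 0.996 on log2(normalized count + 1). It had 903, 729 and 409 normalized counts in control and 45.0, 82.9 and 131 in Bmal1;CKO. Next came Wdr43, a gene of ribosome assembly (0.995), the processed pseudogenes Gm5561 (0.992) and Gm17669 (0.991), and Pias2, a SUMO ligase (0.989). Over 6 libraries, 250 of the 20459 genes tested (1.22%) had a coefficient of at least 0.9.

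Other pathway genes besides Gpx4 had more normalized counts on a pseudogene than on the gene itself. Ncoa4, the receptor that takes ferritin to the lysosome, had a mean of 270.3 over the 6 libraries against 9768 for Ncoa4-ps, whose transcript matches it over 1878 bases with 2 mismatches. Txn1, the thioredoxin gene, had 3144 against 25595 for Txn-ps1, and Acsf2, a medium-chain acyl-CoA synthetase gene, had 98.7 against 515 for Gm5540. Sat1 had 56901 against 68024 for Gm5552. Of the 117 pathway genes, 11 had a near-identical pseudogene transcript, and in these 4 the pseudogene was the higher of the pair.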
